A study of Mus musculus with 8 samples.

Results

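Sm proteins form the ring on which spliceosomal small nuclear ribonucleoproteins (snRNPs) are built, and Prmt5 is the arginine methyltransferase that modifies several of them. The transcripts of 10 genes of this family were followed in B cells with and without Prmt5. The members were taken by gene symbol from the deposited gene table, where all 10 of them were found among 39017 genes. Snrpb, Snrpd1, Snrpd2, Snrpd3, Snrpe, Snrpf and Snrpg encode the ring of the spliceosomal snRNPs, Snrpn encodes SmN, a close relative of SmB that is known from neurons, and Lsm10 and Lsm11 replace SmD1 and SmD2 in the U7 snRNP.

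Splenic B cells of C57BL6/J mice were grown on 40LB feeder cells, fibroblasts that display CD40L and BAFF, with 1 ng/mL IL-4, which gives induced germinal centre-like B cells (iGBs), and at day 4 were freed of the feeder layer by elutriation. The Prmt5-null group came from mice with the PRMT5 FF Cgamma1-cre genotype, in which the floxed gene is excised once B cells are activated, and the control group from mice with Cgamma1-cre alone, so that both groups carried the Cre. Excision depends on a Cre made from the Cγ1 heavy chain locus after activation. The study used young adult mice of both sexes. Each group had 4 independent samples, numbered 10617, 10618, 10770 and 10771 in the Prmt5-null group and CTRL-10650 and CTRL-10370, followed by CTRL-10596 and CTRL-10597 in the control group. Total RNA was depleted of rRNA and sequenced, and the libraries held from 36731721 to 50366174 reads on genes.

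In the cell, the protein pICln collects the Sm proteins in the cytoplasm and presents them to the methylosome, in which Prmt5 works with Wdr77. Symmetric dimethylarginine is placed on the arginine and glycine-rich tails of SmB, SmD1 and SmD3, and the SMN complex, which binds these tails, then closes the ring around the Sm site of an snRNA. The snRNP matures at its cap, returns to the nucleus and takes part in splicing. The U7 snRNP has a ring of its own, with Lsm10 and Lsm11 beside shared Sm proteins, and cuts the ends of replication-dependent histone transcripts. RNA-seq measures the transcripts of these genes and shows neither the amount nor the methylation of the proteins.

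The tails that receive the mark are visible in the coding sequences, which are shown for SmB and SmD3 because they are where the enzyme missing from these cells acts. Codon pairs for arginine followed by glycine were counted in the principal coding transcripts of GENCODE M21 on GRCm38 for the 9 members that had one. There were 8 such pairs in Snrpb, 10 in Snrpd1, 7 in Snrpd3 and 6 in Lsm11, against 2 in Snrpg and 1 in each of Snrpd2, Snrpe, Snrpf and Lsm10. The stretches below run 5′ to 3′ along the coding strand from the first to the last pair in the latter part of the coding sequence, with each pair in capitals, and are spliced, so that they are shorter than the genomic spans named. For Snrpb the stretch covers codons 132 to 229, on the minus strand of chr2:130171942-130173633, and holds 6 pairs. For Snrpd3 it covers codons 64 to 119, on the plus strand of chr10:75532240-75535298, and also holds 6 pairs.
Snrpb: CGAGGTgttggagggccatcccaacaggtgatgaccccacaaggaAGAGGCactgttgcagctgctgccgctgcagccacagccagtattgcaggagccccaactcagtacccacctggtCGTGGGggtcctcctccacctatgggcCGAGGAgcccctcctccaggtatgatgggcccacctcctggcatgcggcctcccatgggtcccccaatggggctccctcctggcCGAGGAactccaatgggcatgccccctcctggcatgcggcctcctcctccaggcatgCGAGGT
Snrpd3: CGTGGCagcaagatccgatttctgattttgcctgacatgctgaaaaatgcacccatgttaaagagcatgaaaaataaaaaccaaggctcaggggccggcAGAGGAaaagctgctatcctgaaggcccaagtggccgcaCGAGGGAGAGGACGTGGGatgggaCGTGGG

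In Snrpb the pairs lie apart, whereas the last pairs of Snrpd3 follow each other closely, 3 of them without a codon between. The first pair shown for Snrpd3 lies in the Sm fold, ahead of the tail. The genes with 1 or 2 pairs encode ring proteins without such a tail.

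The labels were first checked on the targeted gene. Prmt5 ranged from 1060 to 1994 normalized counts in the Prmt5-null libraries and from 11084 to 13087 in control libraries, which gave a log2 fold change of -2.98 with an SE of 0.17 (limma, adjusted p = 6.14e-06). All 8 B cell markers were tested in these libraries, and their summed level ranged from 166833 to 196011 normalized counts in Prmt5-null and from 162294 to 185257 in control iGBs. Of the B cell markers, Cd79a fell (log2 fold change -0.74, limma adjusted p = 0.000327), Fas rose (0.47, adjusted p = 0.00504) and the other 6 did not pass. Of 7 T cell markers Cd3e was at 0 in every library, Cd3d, Cd3g, Cd4 and Cd8a had at most 11.1 normalized counts in any, and Lck and Cd5, which B cells can also express, were tested, of which Lck fell (-0.94, adjusted p = 0.000852). The summed T cell markers ranged from 557 to 699 in Prmt5-null and from 872 to 994 in control libraries. Of 6 myeloid markers, whose sum ranged from 171 to 299 in Prmt5-null and from 110 to 218 in control libraries, 3 were tested and Adgre1, listed as Emr1, rose (0.70, adjusted p = 0.0424). Of 6 plasma cell markers, with sums from 37696 to 45364 in Prmt5-null and from 41183 to 58381 in control libraries, Xbp1 (-0.45, adjusted p = 0.0305) and Prdm1 (-0.48, adjusted p = 0.0428) fell. The sum of 11 fibroblast markers, which the feeder cells could supply, ranged from 10217 to 19000 in Prmt5-null and from 6854 to 12071 in control libraries, with all 11 positive and 4 passing. Beside these counts, 6.51% of all genes tested were higher and 7.33% lower by limma, and 50.4% were positive. The part of these cell types in the results was not tested.

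None of the Sm and Lsm ring genes passed the test between genotypes. Of the 9 members with a mean of at least 10 normalized counts, 0 were higher and 0 were lower in Prmt5-null iGBs at an adjusted p below 0.05 by limma, where 6.51% of the 16250 genes tested were higher and 7.33% were lower. None passed with a change of at least 1.5-fold either, which 6.48% of all genes did, and the 95% intervals of all 9 members lay inside a 1.5-fold change in either direction. Among the 9, 2 had an unadjusted p below 0.05, Snrpe and Lsm11, and DESeq2 run on the recovered reads called 1, Lsm11, which edgeR did not. All genes passing numbered 2249 of the 16250 by limma. DESeq2 and edgeR were run on the same 16250 genes, and all genes passing numbered at most 3075 under any alternative, these 2 among them. The share that DESeq2 called is not given apart, so its 1 call of 9 is not read as a result about the members. The direction was positive for 8 members, including all 7 genes of the spliceosomal ring, and negative for Lsm10. Their median log2 fold change was 0.13, against 0.00 over all genes tested, of which 50.4% were positive. In bulk RNA, fewer cells with a transcript and less of it per cell cannot be told apart.

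**Figure D1:**
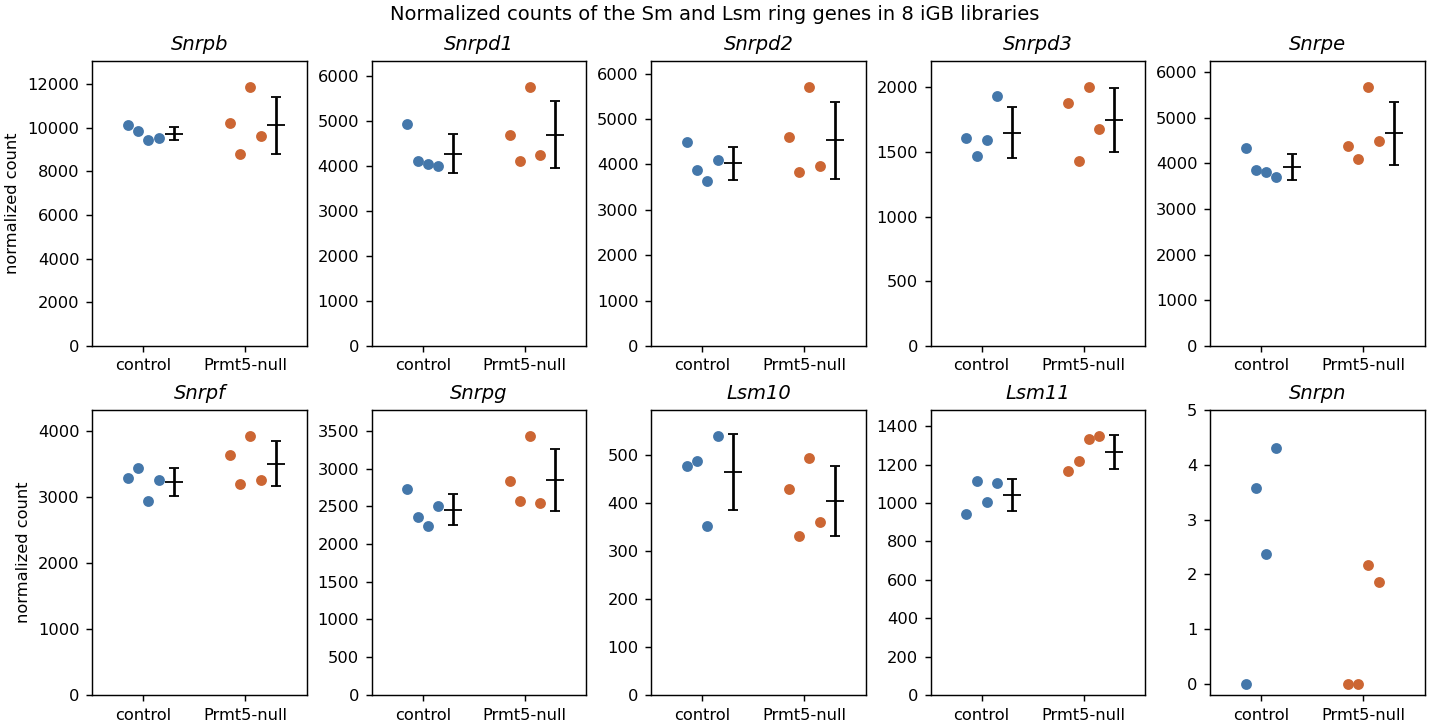
Normalized counts on a linear axis from 0 for each of the 10 genes in the 4 control and 4 Prmt5-null libraries (points), with the mean and SD of each group beside them except for Snrpn. The groups overlap for every gene but Lsm11, whose 4 Prmt5-null libraries lie between 1167 and 1349 and whose control libraries lie between 942 and 1117.

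SmB, SmD1 and SmD3 are the ring proteins whose tails Prmt5 methylates. Snrpb, which encodes SmB, had 10187, 8770, 11859 and 9631 normalized counts in Prmt5-null libraries 10617, 10618, 10770 and 10771, and 9525, 10114, 9841 and 9421 in control libraries CTRL-10650 and CTRL-10370, followed by CTRL-10596 and CTRL-10597. The Prmt5-null values thus reached both above and below all control values. The log2 fold change was 0.05 with an SE of 0.09 and a 95% interval from -0.15 to 0.25 (limma, adjusted p = 0.768), and without library 10770 it was -0.03.

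Snrpd1, for SmD1, had 4677, 4105, 5753 and 4245 normalized counts in the Prmt5-null libraries, in the same order as above, and 3996, 4930, 4119 and 4051 in the control libraries. The highest control library, CTRL-10370, exceeded 3 of the 4 Prmt5-null libraries. The log2 fold change of Snrpd1 was 0.13 with an SE of 0.11, an interval from -0.11 to 0.37 and an adjusted p of 0.480 by limma. Snrpd3, for SmD3, had 1879, 1429, 2004 and 1680 normalized counts in Prmt5-null and 1930, 1612, 1468 and 1593 in control libraries. Its lowest and its highest value were both in Prmt5-null libraries, and its log2 fold change was 0.08, with an SE of 0.12, an interval from -0.18 to 0.33 and an adjusted p of 0.705 by limma. Exons of Snrpd3 share 232 bases with Gucd1 on the other strand. Gucd1 had a mean of 1427 normalized counts over all libraries, beside 1699 for Snrpd3. The strand setting of the counting was not given in the sources used here, and what part this overlap has in the Snrpd3 counts was not tested.

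Snrpd2, Snrpe, Snrpf and Snrpg encode the ring proteins without a methylated tail. Snrpe had 4374, 4089, 5668 and 4480 normalized counts in Prmt5-null and 3699, 4338, 3850 and 3814 in control libraries. Here 3 of the 4 Prmt5-null libraries lay above every control library, and 10618 lay between the highest control library and the rest. The log2 fold change of Snrpe was 0.24 with an SE of 0.10 and an interval from 0.02 to 0.46. Its unadjusted p was 0.0383 and its adjusted p 0.146 by limma, and the exact permutation test on this gene alone gave a two-sided p of 0.0571, where 0.0286 is the smallest p that 4 against 4 libraries can give.

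Snrpg, for SmG, had 2831, 2567, 3431 and 2547 normalized counts in Prmt5-null and 2510, 2725, 2356 and 2237 in control libraries. Apart from control library CTRL-10370, every control library of Snrpg lay below every Prmt5-null library. The log2 fold change was 0.20 with an SE of 0.10 and an interval from -0.02 to 0.43 (limma, adjusted p = 0.218). Snrpd2, for SmD2, ranged from 3842 to 5707 normalized counts in Prmt5-null and from 3640 to 4498 in control libraries, with a log2 fold change of 0.16 and an interval from -0.11 to 0.42 (limma, adjusted p = 0.422). Snrpf, for SmF, ranged from 3192 to 3924 in Prmt5-null and from 2936 to 3442 in control libraries, with a log2 fold change of 0.11 and an interval from -0.07 to 0.30 (limma, adjusted p = 0.415). Both genes overlapped between the groups, and Snrpf shares 567 exon bases with Ccdc38 on the other strand, a gene with a mean of 90.3 normalized counts.

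**Figure D2:**
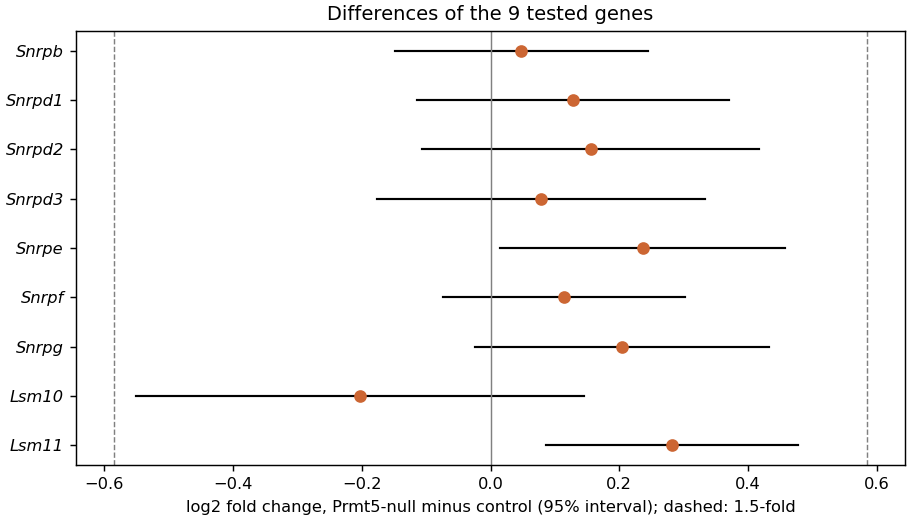
Log2 fold change of Prmt5-null over control iGBs on the log2(normalized count + 1) scale for the 9 tested genes (points), with 95% intervals from limma (lines) and dashed lines at a 1.5-fold change. The intervals of Snrpe and Lsm11 lie above 0, those of the other 7 cross it, and all 9 stay between the dashed lines.

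The pair that marks the U7 snRNP gave the lowest adjusted p and the only negative difference among the 9 members tested. Lsm11, the larger U7 protein, whose N-terminal part binds the histone cleavage machinery, had 1167, 1218, 1332 and 1349 normalized counts in Prmt5-null and 1104, 942, 1117 and 1005 in control libraries. Every Prmt5-null library was above every control library, which was true of no other member and of 9.67% of all genes tested. The log2 fold change of Lsm11 was 0.28 with an SE of 0.09 and an interval from 0.09 to 0.48, and the unadjusted p was 0.00877 and the adjusted p 0.0579 by limma. The exact permutation test on Lsm11 alone gave a two-sided p of 0.0286, the smallest it can give. The adjusted p was 0.0250 by DESeq2 and 0.0466 by limma after quantile normalization, so that the call depended on the method.

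Lsm10, its partner in the U7 ring, had 428, 331, 493 and 359 normalized counts in Prmt5-null and 539, 476, 487 and 352 in control libraries. The groups overlapped widely, since control library CTRL-10597 was lower than 3 of the 4 Prmt5-null libraries. The log2 fold change was -0.20 with an SE of 0.16 and an interval from -0.55 to 0.15 (limma, adjusted p = 0.434), the widest interval of the 9 members. The ratio of Lsm11 to Lsm10, examined after their values were seen, was 2.73, 3.68, 2.70 and 3.76 in Prmt5-null and 2.05, 1.98, 2.29 and 2.86 in control libraries. Only control library CTRL-10597 reached into the Prmt5-null range. The ratio differed by 0.49 on the log2 scale, with a two-sided exact permutation p of 0.0857 over the 8 libraries and p from 0.0571 to 0.171 with 1 library left out. The lowest was that without CTRL-10597, the one library that overlapped, and is the smallest p that design can give.

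Snrpn, the imprinted neuronal gene of the family, had almost no counted reads. It had 0, 0, 2.16 and 1.87 normalized counts in Prmt5-null and 4.31, 0, 3.58 and 2.37 in control libraries, which stand for 0 to 4 reads in a library. Over all 8 libraries there were 14 reads on Snrpn, 4 in Prmt5-null and 10 in control, beside 79985 on Snrpb. Its share of the reads on the Snrpb and Snrpn pair was at most 0.0452% in any library, with exact binomial upper limits of at most 0.116%. These limits cover counting error only and take each read as independent, although sequencing was paired-end. An exact permutation test of the shares gave a two-sided p of 0.200, and at this depth a difference in so few reads was not detectable. Snurf, which is read from the same locus and overlaps Snrpn in the annotation, had 0 to 2 reads in a library. Snrpn and Snurf share 216 exon bases on the same strand, and reads there may be missing from the counts of both. Snrpn also shares 589 exon bases on the same strand with another protein-coding entry of the same name in the annotation. Reads there may be missing too. The counts and shares above are those of the listed Snrpn gene alone, and what part this overlap has in them was not tested. SmB and SmN are similar in sequence, and reads that fit both genes may not have been counted for either.

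Summed over the spliceosomal ring, the 7 genes gave 32083 ± 4513 normalized counts in Prmt5-null and 29290 ± 1598 in control iGBs (SD, n = 4 each). The Prmt5-null totals ran from 27994 to 38347 and the control totals from 27693 to 31507. The difference of 0.12 on the log2 scale was within the spread between libraries (exact permutation test, two-sided p = 0.314), and without library 10770 it was 0.03 (p = 0.629). The total therefore rested in large part on that library.

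Library 10770 held the highest value of all 7 ring genes, and its ring total was 1.31 times the control mean. Relative to the control mean, its ring genes lay 0.28 to 0.53 higher on the log2 scale, with a median of 0.43. The same median was 0.17 in library 10617, -0.05 in 10618 and 0.02 in 10771, and from -0.07 to 0.15 in the control libraries. Over all genes tested, those with at most 1000 exon bases had a median of 0.17 in library 10770, while longer genes had a median of -0.02. In the other 7 libraries the short genes ranged from -0.08 to 0.04. By all annotated exons only 2 of the members, Snrpf (861 bases) and Lsm10 (943), are that short. By the principal transcript, Snrpe (503 bases) and Snrpd1 (858) are also below this limit. The other members with such a transcript are longer, with Snrpg (1055) and Snrpb (1161) nearest to it. What part length has in the values of this library was not tested.

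**Figure D3:**
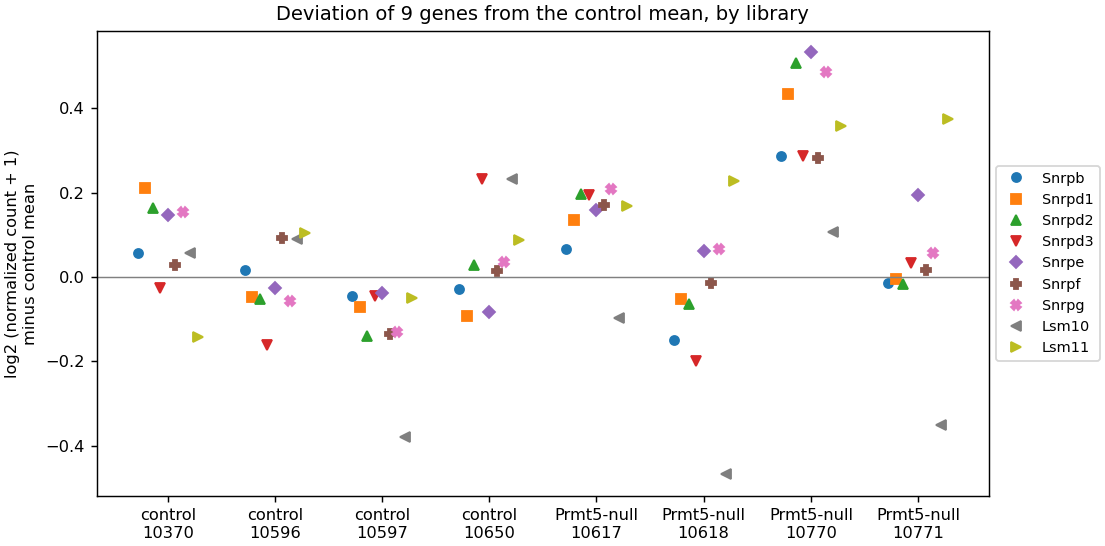
Deviation of each of the 9 tested genes (symbols) from its control mean, as a difference of log2(normalized count + 1), in the 4 control and 4 Prmt5-null libraries. In Prmt5-null library 10770 all 7 ring genes lie from 0.28 to 0.53 above the control mean, while Lsm10 varies from library to library in both groups.

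The coefficient of variation (CV), the SD as a percentage of the mean, was larger in Prmt5-null than in control iGBs for all 7 ring genes. For Snrpb it was 12.9% in Prmt5-null against 3.24% in control libraries, and for Snrpd2 18.8% against 9.07%. Lsm11 was the least variable member in Prmt5-null libraries, at 6.95% against 7.99% in control. These spreads rest on 4 libraries each and were not compared by a test. Library 10770 was the highest for all 7 ring genes, so that their spreads in Prmt5-null share this library. For the ring total, the SD in Prmt5-null was 4513 normalized counts with library 10770 and 2099 without it, against 1598 in control. How many of all genes had a larger CV in Prmt5-null was not counted.

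The ring proteins are used in equal numbers in each snRNP, and the levels of their transcripts per length were far from equal. In control iGBs, per kilobase of all annotated exons of a gene, Snrpb had 4922 ± 159 normalized counts (SD, n = 4), followed by Snrpf with 3754 ± 247, Snrpe with 2861 ± 206 and Snrpd1 with 2083 ± 215. Snrpg followed with 1565 ± 134 and Snrpd2 with 1538 ± 140 per kilobase, and these neighbours overlapped. Lsm10 had 492 ± 84.0 and Snrpd3 480 ± 57.3 per kilobase, which also overlapped, and Lsm11 was lowest with 161 ± 12.9. Other neighbours in this order did not overlap among the 4 control libraries. Snrpd3 was thus the lowest gene of the spliceosomal ring, near the level of Lsm10.

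Part of this order depends on which length is used. Per kilobase of the principal transcript, Snrpb had 8376 ± 271 and Snrpe 7804 ± 562 normalized counts, with overlap, Snrpd1 had 4981 ± 513 and Snrpf 3754 ± 247, Snrpd2 had 2835 ± 257 and Snrpg 2329 ± 199, and Snrpd3 had 544 ± 64.9. Snrpe rose from the third to the second place, Snrpf fell from the second to the fourth, and Snrpb and Snrpd3 remained the highest and lowest ring genes under both lengths. The levels of Snrpf, Lsm10 and Lsm11 were the same under both, because the 2 lengths agree for them. For Snrpd3 the lengths were close, 3442 and 3036 bases, so that this comparison could move its level only a little.

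The genes whose pattern over the 8 libraries was most like the mean of the 7 standardized ring genes, among 13291 others with a mean above 50 normalized counts, were Sf3b5, a U2 snRNP subunit, with a Pearson r of 0.993, Timm8b, a mitochondrial import chaperone, with 0.991, and Uqcr10, a subunit of respiratory complex III, with 0.991. None of these passed the test between genotypes, with adjusted p of 0.361, 0.358 and 0.360 by limma. The ring genes themselves had r from 0.73 to 0.99 with the mean to which each contributes, while Lsm10 had 0.47 and Lsm11 0.41. All points share the same 8 libraries, of which 10770 is the highest for every ring gene.

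The partners of the ring were taken from lists written by role. Of 7 genes listed for the methylosome and related methyltransferases, 3 fell, the deleted Prmt5 among them, and 0 rose, against 7.33% lower and 6.51% higher of all genes tested. Besides Prmt5 these were Wdr77, the partner that presents substrates to Prmt5, which went from 5476 ± 319 normalized counts in control to 4511 ± 92.5 in Prmt5-null iGBs (SD, n = 4 each; log2 fold change -0.28, limma adjusted p = 0.0188), and Prmt9, another type II methyltransferase that is no part of the methylosome, which the table lists as Prmt10 (-0.42, adjusted p = 0.00798). Clns1a, which encodes pICln, had a log2 fold change of 0.21 with an interval from -0.01 to 0.42 and did not pass (adjusted p = 0.183). The median of the list was -0.08. None of the 9 genes of the SMN complex passed, with log2 fold changes from -0.16 to 0.28 and a median of 0.04, and Smn1 itself was at 0.15 (adjusted p = 0.415).

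Of 8 genes for the maturation and import of snRNPs, 2 rose and 0 fell, where 6.51% of all genes tested rose. Ncbp2, the small subunit of the cap-binding complex, rose from 1952 ± 136 normalized counts in control to 2609 ± 182 in Prmt5-null iGBs (log2 fold change 0.42, limma adjusted p = 0.00575), and Phax, the adaptor that carries snRNAs out of the nucleus, rose by 0.31 (adjusted p = 0.0244). Of 11 other LSm genes, Lsm14b rose by 0.29 (adjusted p = 0.0164) and the other 10 did not pass, a count near that share of all genes. This gene acts in cytoplasmic RNA granules and not in an snRNP.

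Of 12 genes for proteins particular to one snRNP, 2 rose and 0 fell, with a median of 0.06, beside 6.51% higher and a median of 0.00 over all genes tested. Snrnp200, the Brr2 helicase of the U5 snRNP, had 35040 ± 845 normalized counts in Prmt5-null against 18379 ± 950 in control iGBs, and its log2 fold change was 0.93 with an SE of 0.07 and an adjusted p of 2.53e-05 by limma. The 4 Prmt5-null libraries lay between 33898 and 35825 and the control libraries between 17344 and 19519. Sart1, a tri-snRNP protein, rose by 0.29 (adjusted p = 0.0477). The interval of Snrnp200, from 0.78 to 1.09, lay above those of all 9 Sm and Lsm ring members, of which the highest upper limit was 0.48.

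**Figure D4:**
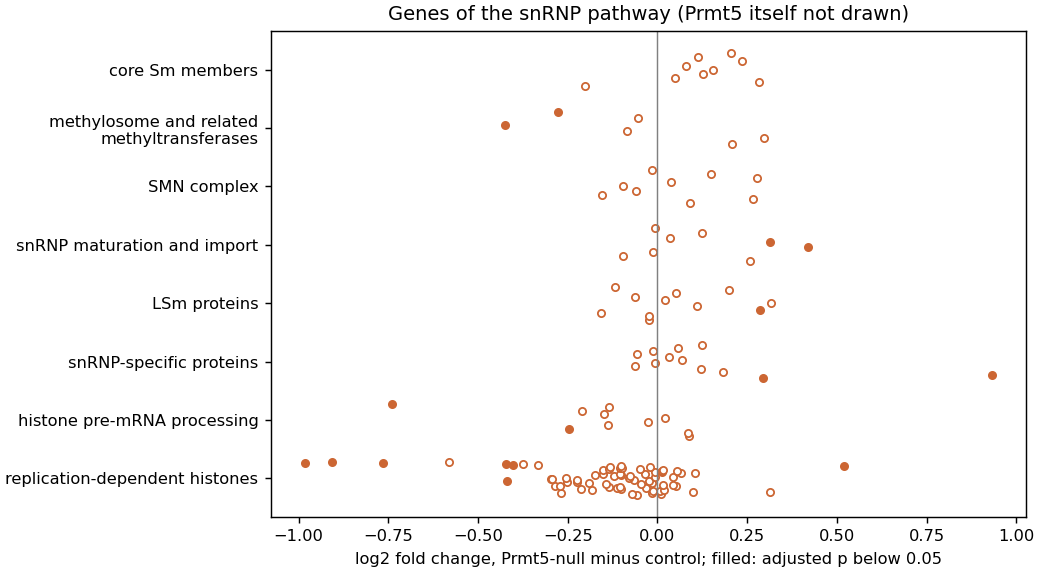
Log2 fold change of Prmt5-null over control iGBs for each tested gene (points) of 8 lists, on the log2(normalized count + 1) scale, with filled points where the limma adjusted p is below 0.05 and without Prmt5. No point of the core Sm list is filled, and Snrnp200 lies apart on the right at 0.93.

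The U7 snRNP acts on histone transcripts with other proteins. Of 10 genes for histone pre-mRNA processing 0 rose and 2 fell, where 7.33% of all genes tested fell. These were Zfp473, a zinc finger protein of the U7 complex, which fell by 0.74 on the log2 scale (limma, adjusted p = 0.0108), and Cpsf3, the cleaving nuclease, with a log2 fold change of -0.25 (adjusted p = 0.0306). Slbp, which binds the histone stem-loop, was at -0.15 and did not pass (adjusted p = 0.249). Of 69 Hist1h to Hist4h genes tested, 1 rose and 6 fell, 53 were negative, and the median log2 fold change was -0.10. The share that fell is near the 7.33% of all genes. The strongest changes among them were those of Hist3h2ba (-0.98, adjusted p = 0.00828), Hist3h2bb-ps (-0.91, adjusted p = 0.0205) and Hist3h2a (-0.76, adjusted p = 0.0110), all in one histone cluster. Histone genes have near-identical copies, so that their counts are uncertain, and their total ranged from 606657 to 1128130 normalized counts in Prmt5-null and from 768962 to 994818 in control libraries.

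The splicing of the members' own transcripts was taken from the deposited events, which hold the most significant event of each type for a gene. The 1918 events fell in 1519 genes, 11.4% of the 13300 genes with a mean above 50 normalized counts. Of the 9 members above that level, 0 carried an event of any type. The authors kept only events that passed their limits on significance and on the difference in inclusion level. Weaker events in the members would therefore not appear. Among the other lists, 1 of 7 genes of the methylosome list, 1 of 11 LSm genes and 2 of 10 histone processing genes carried one, and 0 of 9 SMN complex genes did. The gene of the methylosome list was the deleted Prmt5 itself, with events of the skipped exon, retained intron and mutually exclusive exon types. Lsm14b had an event of the skipped exon type and Zfp473 one at an alternative 3′ splice site.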

How the data were processed

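RNA-seq of 4 Prmt5-null and 4 control iGB samples was used. Per the submitters' processing notes, Trimmomatic 0.32 was used for trimming, STAR 2.3.0e for alignment to GRCm38 (mm10) and featureCounts 1.4.4 for counting, and the authors deposited a normalized signal, each count divided by the DESeq2 1.14.1 size factor of its library. All values (100%) came out as whole reads, within 0.01 of a read, after division by the worth of 1 read. The deposited rMATS event tables were used for gene names only.

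Genotypes were compared in R 4.3.3 with limma 3.58.1, with an intensity trend, after adding 1 to each normalized count and taking log2, for the 16250 genes with a mean of at least 10, with Benjamini-Hochberg adjustment over all of them. A fold change on this scale understates that of low genes. Single values were compared by exact two-sided permutation over all 70 assignments. The recovered reads were also tested with edgeR 4.0.16 and with DESeq2 1.42.0. The code was tested on simulated data. Lengths, coding sequences and positions came from GENCODE M21, and figures from matplotlib 3.10.9.

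The members and lists were chosen with earlier results of these data known. Genes named were all members, Prmt5, at most the 3 largest passing changes of each other list and the 3 genes most like the ring. Clns1a, Smn1, Slbp and the T cell markers were named in addition after their values were seen, as was the ratio of Lsm11 to Lsm10, and Gucd1, Ccdc38 and Snurf because they overlap members. Alternatives changed the pseudocount, filter, normalization, trend, tool, threshold and libraries, and 1 set of fits had a block for the experiment.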

Additional observations from a re-analysis of the deposited data

Results flagged for a closer look

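One value among the 20 groups of 4 libraries checked (10 genes in both genotypes) stood far from the others of its group. Snrpd1 had 4930 normalized counts in control library CTRL-10370, while the nearest other control library had 4119, and this gap was 0.869 of the range of the group, above the limit for 4 samples. Chance marks about 1 in 20 such groups.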

How the results depend on the processing

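Of 162 values of the 9 tested members under alternatives, 158 kept their direction and their side of an adjusted p of 0.05. With 1 library left out, Snrpb ranged from -0.031 to 0.11 and was negative only without Prmt5-null library 10770. Lsm11 passed with 0.30 after quantile normalization (adjusted p = 0.0466), with 0.28 under DESeq2 (0.0250) and with 0.28 in 3 of 18 placements of the experiment as a block (lowest adjusted p 0.0368), where 15 did not pass. Its adjusted p ranged from 0.0250 to 0.160 over all alternatives, so the count of members passing was 0 or 1, and the cause was not tested. The lowest adjusted p of any other member was 0.0787. All genes passing numbered 2249, 971 at the stricter threshold of 0.01 and 1371 to 2369 with 1 library left out, the fewest without Prmt5-null library 10771. Under any alternative they numbered at most 3075. With the 1.5-fold limit they numbered 1053, and 637 at 0.01. The difference in ring total ranged from 0.03 to 0.18 and that of the Lsm11 to Lsm10 ratio from 0.40 to 0.60 with 1 library left out, and neither passed. No scaling moved the median of all genes by more than 0.01. Of the other named genes, Wdr77, Phax, Sart1, Cpsf3, Hist3h2bb-ps, Adgre1, Xbp1 and Prdm1 lost their call under some alternatives, and none of them reversed. No paired analysis was possible because the groups share no replicate numbers and no label ties a library to 1 of the 2 experiments. Counting depth limits the values of Snrpn.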
